A study of Homo sapiens with 36 samples.

Results

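The microRNA host genes MIR3142HG, MIR155HG and MIR22HG and the long noncoding RNAs NEAT1, MALAT1 and LUCAT1, 6 genes that yield RNA but no protein, were followed in A549 cells, a human lung adenocarcinoma line, during and after exposure to the cytokine IL-1β. These 6 genes, of 63677 listed in the count files, were chosen by symbol, with their measured response to IL-1β known. Their values in IL-1β against untreated cells are therefore a description and carry no test. All 6 symbols matched 1 Ensembl identifier each, and 5 of the 6 passed the filter on low counts. MIR155HG did not pass it.

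Polyadenylated RNA was sequenced in 36 libraries, 3 in each of 12 groups. A549 cells received IL-1β at 1 ng/ml and were collected at days 6, 15 and 21 of exposure. After 21 days of exposure the cytokine was withdrawn, and cells were collected 6, 15 and 30 days later. The labels do not say whether the collections came from the same passaged cultures. Each of the 6 collections had untreated cells beside it, and all cells came from 1 line kept in RPMI medium with serum.

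A microRNA host gene gives a long primary transcript from which the nuclear enzyme Drosha cuts a hairpin, and Dicer then trims the hairpin to the mature microRNA. The host transcript can be counted by RNA-seq of polyadenylated RNA, whereas the mature microRNA is too short to be captured, so the counts speak to the host and not to the microRNA. MIR3142HG carries miR-3142 and miR-146a, the latter an NF-κB-induced brake on IL-1 receptor signalling through IRAK1 and TRAF6. MIR155HG carries miR-155, known from activated leukocytes, and MIR22HG carries miR-22. NEAT1 is the scaffold of nuclear bodies called paraspeckles, MALAT1 is an abundant RNA of nuclear speckles, and LUCAT1 is a stress-responsive RNA linked to the antioxidant factor NRF2 and to the restraint of inflammatory genes.

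The mature microRNAs of the 3 hosts are shown because they are what links each host gene to its targets. They are the RefSeq sequences of GRCh38.p14, and capitals mark the seed, bases 2 to 8, which pairs with target messages.
hsa-miR-146a-5p: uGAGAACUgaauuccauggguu
hsa-miR-3142: aAGGCCUUucugaaccuucaga
hsa-miR-155-5p: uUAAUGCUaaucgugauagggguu
hsa-miR-22-3p: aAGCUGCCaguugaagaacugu

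No 2 of these 4 microRNAs had the same seed. Among 2370 mature microRNAs in the table, the seed of miR-146a-5p occurred in 3, the others being miR-146b-5p and miR-7153-5p. The seed of miR-3142 occurred in 2, the other being miR-1245b-5p. Those of miR-155-5p and miR-22-3p occurred in 1 each.

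The promoters of MIR3142HG and LUCAT1, the 2 members with the largest fitted change at day 6, are also shown because they differ in the motifs they hold, from 250 bases before the annotated start to 50 after it. The first lies at chr5:160468001-160468300 on the plus strand and the second at chr5:91314353-91314652 on the minus strand (RefSeq, GRCh38.p14). Judged by distance to miR-3142, this RefSeq start of MIR3142HG lies inside the gene as annotated in GENCODE v44. It is not at that gene's first base, chr5:159865601 in GRCh37. Capitals mark letters that match a searched motif.
MIR3142HG: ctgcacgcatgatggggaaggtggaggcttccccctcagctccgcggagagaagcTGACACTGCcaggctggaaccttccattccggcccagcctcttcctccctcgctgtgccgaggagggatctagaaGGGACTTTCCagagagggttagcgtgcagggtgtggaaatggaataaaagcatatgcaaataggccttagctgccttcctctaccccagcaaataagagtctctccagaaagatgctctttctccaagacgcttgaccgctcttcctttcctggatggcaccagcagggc
LUCAT1: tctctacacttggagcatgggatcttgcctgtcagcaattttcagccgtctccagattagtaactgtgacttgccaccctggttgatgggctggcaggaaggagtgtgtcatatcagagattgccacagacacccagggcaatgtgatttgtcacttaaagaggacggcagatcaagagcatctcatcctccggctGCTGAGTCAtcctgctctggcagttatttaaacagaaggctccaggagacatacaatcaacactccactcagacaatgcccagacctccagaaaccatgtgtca

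The MIR3142HG promoter held a match to the κB consensus that began 120 bases before the start, and 5.91% of 35116 promoters of the same length held one. It also held the core of the antioxidant response element, spelled TGACNNNGC, 195 bases before the start, a motif present in 13.3% of promoters. The LUCAT1 promoter held an AP-1 site, spelled TGANTCA, 52 bases before the start, and 7.71% of promoters held that motif. An antioxidant response element core on the other strand, 54 bases before the start, overlapped this AP-1 site. Both strands were searched for these motifs and for TGACGTCA, the cyclic AMP response element, which occurred in 1.85% of promoters and in none of the promoters of MIR3142HG, LUCAT1, MIR155HG, MIR22HG and MALAT1. The MIR155HG promoter had an AP-1 site 60 bases before the start and the MIR22HG promoter matched none of the 4 motifs. MALAT1 had 2 promoter entries, of which one held 2 antioxidant response element cores and the other held no match. These matches describe letters and not bound sites.

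Libraries held 9116032 to 23570026 counts on genes. In 11 libraries, 8 of them numbered replicate 2, mitochondrial genes took 11.8% to 24.6% of the counts, and in the other 25 they took 5.61% to 7.75%. The keratins KRT8 and KRT18 were abundant and E-cadherin (CDH1) was present in every library, whereas KRT19 reached only 0.195 CPM (a gene's counts scaled to a common library total) and EPCAM 1.62 CPM. The alveolar type II markers SFTPA1 and NKX2-1 were at the floor of 3 counts in every library, and so was PTPRC, the leukocyte marker. The summed leukocyte list came to 1.80 to 16.6 CPM, nearly all of it CD14, the fibroblast list to 1.02 to 4.19 CPM, the alveolar type II list to 0.299 to 2.06 CPM, the endothelial list to at most 0.405 CPM and the erythrocyte list to at most 0.358 CPM. In such bulk samples, fewer expressing cells and less RNA per cell cannot be told apart.

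MIR3142HG, which hosts miR-146a (ENSG00000253522, chr5:159865601-159914433, plus strand, GRCh37, 2377 exon bases), was present under the cytokine and near the floor without it. CPM are given for replicates 1, 2 and 3 in that order. At day 6 of IL-1β it stood at 7.37, 6.57 and 6.86 CPM, from 107, 90 and 141 counts. At day 15 it stood at 12.7, 12.1 and 18.1 CPM and at day 21 at 13.5, 12.1 and 14.7 CPM. All 9 exposed libraries were far above the untreated ones, of which the highest over the 18 held 2 counts (0.203 CPM). A count of 3 corresponds to 0.119 to 0.386 CPM over the libraries, and untreated cells are treated as at or below that floor.

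Against 3 counts per untreated library, MIR3142HG was at least 32.8-fold higher at day 6, at least 87.9-fold at day 15 and at least 85.7-fold at day 21. Within exposed cells, where the gene is measured above the floor, the mean rose from 6.93 ± 0.407 CPM (SD, n = 3) at day 6 to 14.3 ± 3.30 at day 15, a ratio of 2.06. The 3 libraries of day 15 lay above the 3 of day 6, and so did those of day 21, with a mean of 13.4 ± 1.30 CPM. Days 15 and 21 overlapped, with a ratio of 0.941.

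After withdrawal MIR3142HG was back near the floor by the first collection. At 6 days after withdrawal the 3 libraries held 3, 1 and 2 counts, at 15 days 0, 2 and 9 counts and at 30 days 1, 2 and 0 counts. Only the library with 9 counts, 0.419 CPM in replicate 3, stood above the floor. Day 21 of exposure was at least 58.9-fold above the IL-1β-exposed libraries of 6 days after withdrawal, against 3 counts per library.

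**Figure D1:**
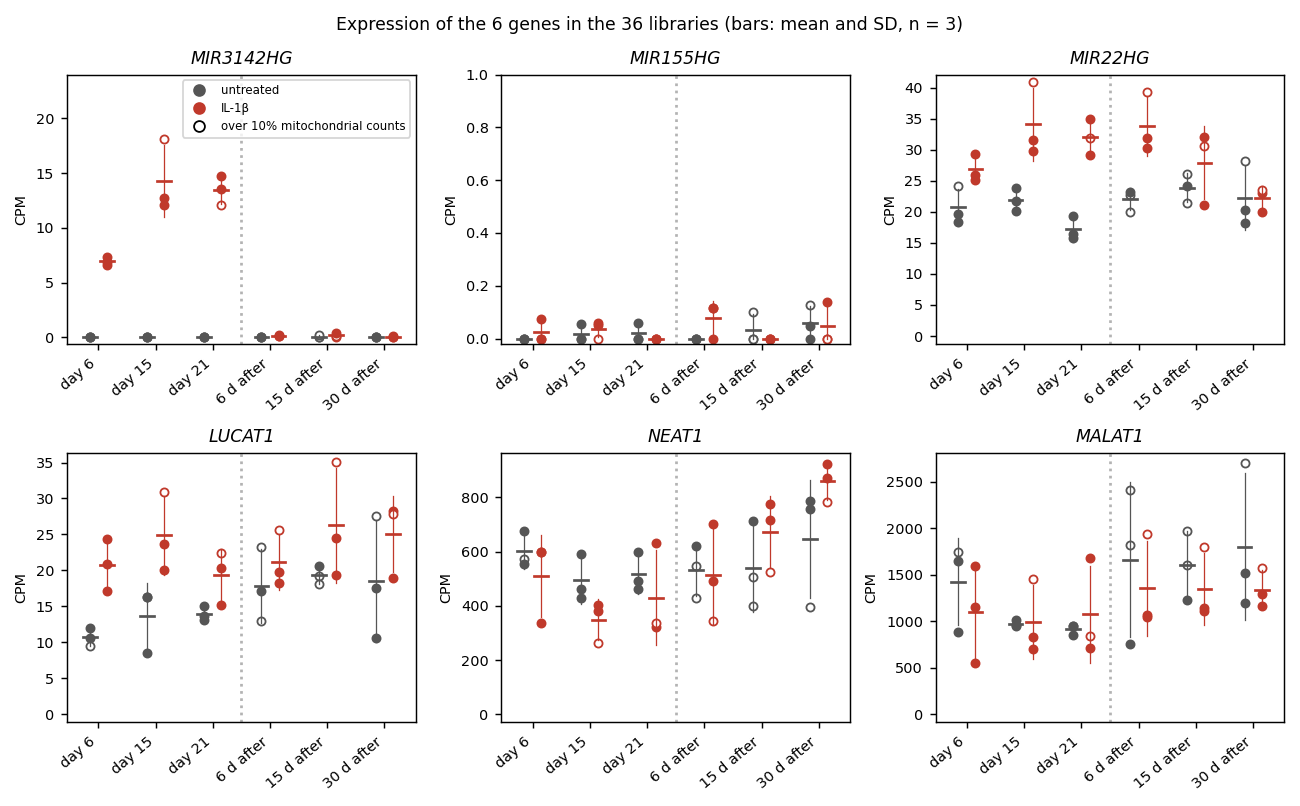
CPM of the 6 genes (vertical axes, linear, scaled separately) in untreated and IL-1β cells at the 6 collections, with 1 point per library and bars for the mean and SD of 3 libraries; open points are libraries with over 10% mitochondrial counts and the dotted line marks withdrawal. MIR3142HG is present only in the 9 libraries under IL-1β apart from traces, MIR155HG lies at the floor throughout, and MIR22HG stays above untreated cells to 6 days after withdrawal.

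The locus contains the hairpin gene MIR3142 (ENSG00000265237, chr5:159901409-159901490, GRCh37), which had 0 counts in all 36 libraries. Neither of the nearest tested protein-coding genes passed at any of the 6 times. PTTG1, the securin of chromosome separation, lies 9855 bases from the first base of the annotated gene. It stood at 97.8 ± 9.02 CPM in untreated and 97.2 ± 15.9 CPM in IL-1β cells at day 21. The log2 difference for PTTG1 came to -0.01 (SE 0.17, adjusted p = 0.9995, edgeR quasi-likelihood, Benjamini-Hochberg). ATP10B on the other side, a phospholipid flippase, was low, at 0.796 CPM untreated and 1.58 CPM exposed at day 21, and its log2 difference of 0.93 (standard error 0.57) did not pass (adjusted p = 0.5923, same test).

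MIR155HG (ENSG00000234883, chr21:26934122-26947480, plus strand, GRCh37, 1776 exon bases) was not detectable at this depth in either state. No library held more than 3 counts, the highest level being 0.140 CPM, so no fold is given. Over the 9 libraries under IL-1β its counts came to 1 at day 6, 2 at day 15 and 0 at day 21. The host of miR-146a and that of miR-155, both known as NF-κB targets, were thus at different levels in these cells.

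MIR22HG (ENSG00000186594, chr17:1614741-1620468, minus strand, GRCh37, 3108 exon bases) was expressed in every library and was higher in IL-1β cells, by a margin that was widest at day 21, though the change between times was not tested. At day 6 it stood at 19.6, 24.2 and 18.4 CPM untreated and 26.0, 25.2 and 29.4 CPM exposed. At day 21 it stood at 15.7, 16.4 and 19.4 CPM untreated and 29.1, 31.9 and 34.9 CPM exposed. The exposed libraries were all above the untreated ones at both times, and at day 15 as well, with 29.8 to 40.8 against 20.1 to 23.9 CPM. Untreated cells had their lowest mean at day 21, 17.2 CPM. Exposed cells averaged 34.1 CPM at day 15 and 32.0 CPM at day 21.

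On the log2 scale MIR22HG differed by 0.38, then 0.63, then 0.90 at days 6, 15 and 21, each with a standard error of 0.17, and the last is 1.86-fold. At 6 days after withdrawal, exposed cells had 30.2, 39.3 and 31.9 CPM against 19.96, 22.8 and 23.3 CPM in untreated cells. The groups still did not overlap, and the log2 fold change was 0.62 (standard error 0.17), when MIR3142HG was at the floor. At 15 days it was 0.23, with exposed libraries of 32.0, 30.7 and 21.2 CPM spanning the untreated ones. At 30 days it was 0.00, and both groups averaged 22.2 CPM. Without the 11 libraries of high mitochondrial share, the values at day 6 and at 6 days after withdrawal were 0.52 and 0.44 (standard errors 0.15 and 0.20), the latter with 1 untreated library left.

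LUCAT1 (ENSG00000248323, chr5:90350651-90610364, minus strand, GRCh37, 16558 exon bases in 26 blocks) had its highest log2 fold change at the first collection. At day 6 it stood at 10.6, 9.56 and 12.04 CPM untreated and 17.2, 20.9 and 24.4 CPM exposed, a log2 fold change of 0.95 (standard error 0.29). At day 15 it stood at 16.3, 16.3 and 8.55 CPM untreated and 23.7, 20.02 and 30.9 CPM exposed (log2 fold change 0.86, standard error 0.29). At day 21 it stood at 15.0, 13.7 and 13.1 CPM untreated and 20.4, 22.4 and 15.2 CPM exposed (log2 fold change 0.47, standard error 0.28). The groups did not overlap at any of the 3 times, narrowly so at day 21. The value at day 15 ran from 0.43 without replicate 3 to 1.16 without replicate 2. The untreated mean was lowest at day 6, at 10.7 CPM. Exposed cells averaged 20.8, 24.9 and 19.3 CPM at days 6, 15 and 21, so their own level was not highest at day 6.

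After withdrawal LUCAT1 overlapped between the groups at all 3 collections, with log2 fold changes of 0.24, 0.44 and 0.44. The spread was wide, exposed libraries running from 18.2 to 35.0 CPM and untreated ones from 10.6 to 27.5 CPM. At 15 days after withdrawal the value was 0.09 without the libraries of high mitochondrial share (standard error 0.33, 1 untreated library left). Over the 3 collections after withdrawal exposed cells averaged 21.2, 26.3 and 25.0 CPM and untreated cells 17.8, 19.35 and 18.5 CPM.

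**Figure D2:**
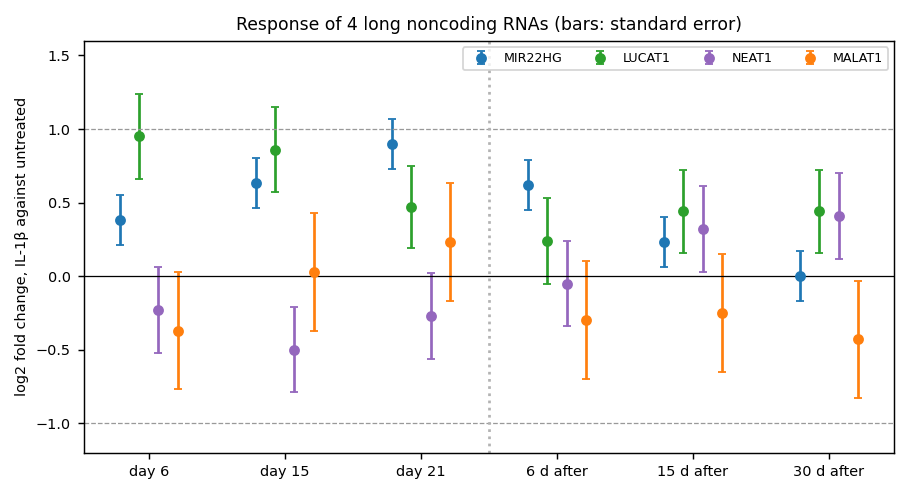
Log2 fold change of IL-1β against untreated cells (vertical axis) with its standard error for MIR22HG, LUCAT1, NEAT1 and MALAT1 at the 6 collections; the dotted line marks withdrawal and dashed lines a 2-fold change. The fold change of MIR22HG is highest at day 21 (0.90) and 0.00 at 30 days after withdrawal. That of LUCAT1 is highest at day 6, and that of NEAT1 goes from -0.50 at day 15 to 0.41 at the last collection.

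NEAT1 (ENSG00000245532, chr11:65190245-65213011, plus strand, GRCh37, 22767 exon bases) was lower in exposed than untreated cells without overlap at day 15 only. There it stood at 462, 427 and 591 CPM untreated and 403, 382 and 262 CPM exposed, a log2 fold change of -0.50 (standard error 0.29). The lowest exposed library, replicate 3, was one of high mitochondrial share (15.3%), and the value without replicate 3 was -0.17. At days 6 and 21 the log2 fold changes were -0.23 and -0.27, and the exposed libraries split. At day 21 replicates 1 and 2 held 323 and 335 CPM and replicate 3 held 631 CPM, above all untreated libraries.

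After withdrawal the difference in NEAT1 went from near 0 to above it, with overlap at all 3 collections. The log2 fold change was -0.05 at 6 days after withdrawal, 0.05 with total counts and -0.25 with the mitochondrial share term. It was 0.32 at 15 days and 0.41 at 30 days, each with a standard error of 0.29. The value at 15 days was 0.07 without the libraries of high mitochondrial share (standard error 0.32, 1 untreated library left) and 0.09 without replicate 3. At 30 days previously exposed cells had 924, 784 and 870 CPM and untreated cells 785, 397 and 757 CPM, so the highest untreated library lay just above the lowest exposed one. Untreated replicate 2, at 397 CPM, was a library of high mitochondrial share (23.2%). Without such libraries the value was 0.23 (standard error 0.26, n = 2 and 2).

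MALAT1 (ENSG00000251562, chr11:65265111-65275544, plus strand, GRCh37, 10434 exon bases) was the most abundant of the 6 and overlapped between the groups at every collection. At day 21 it stood at 951, 952 and 852 CPM untreated and 708, 843 and 1675 CPM exposed. Exposed libraries lay on both sides of the untreated ones, and the log2 fold change of 0.23 (standard error 0.40) was -0.30 without replicate 3. The other log2 fold changes were -0.37 at day 6, 0.03 at day 15, and -0.30, -0.25 and -0.43 after withdrawal, with standard errors of 0.40. That at day 15 was -0.09 with total counts. Without the libraries of high mitochondrial share, that at 6 days after withdrawal was 0.50 (standard error 0.44, 1 untreated library left). Another annotated gene on the opposite strand overlaps 5.8% of its exon bases.

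MALAT1 was higher in untreated libraries of high mitochondrial share, and less clearly so in IL-1β ones. In untreated cells it stood at 1608 to 2703 CPM (median 1898, n = 6) where that share was high and at 758 to 1646 CPM (median 954, n = 12) where it was low, and 5 of the 6 libraries lay above the whole of the low range. In IL-1β cells the ranges overlapped widely. MALAT1 stood there at 843 to 1939 CPM (median 1568, n = 5) at high share and 554 to 1675 CPM (median 1108, n = 13) at low share. NEAT1 was not higher in untreated libraries of high share, with 397 to 571 CPM (median 466) against 427 to 785 CPM (median 595). The part of the mitochondrial share in these levels was not tested. In the 25 libraries of low share, the levels of NEAT1 and MALAT1 went together (Pearson r = 0.71 on log2 CPM), and in the 11 of high share they did so less (r = 0.28). These libraries share culture times and scaling, and the coefficients are descriptive.

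**Figure D3:**
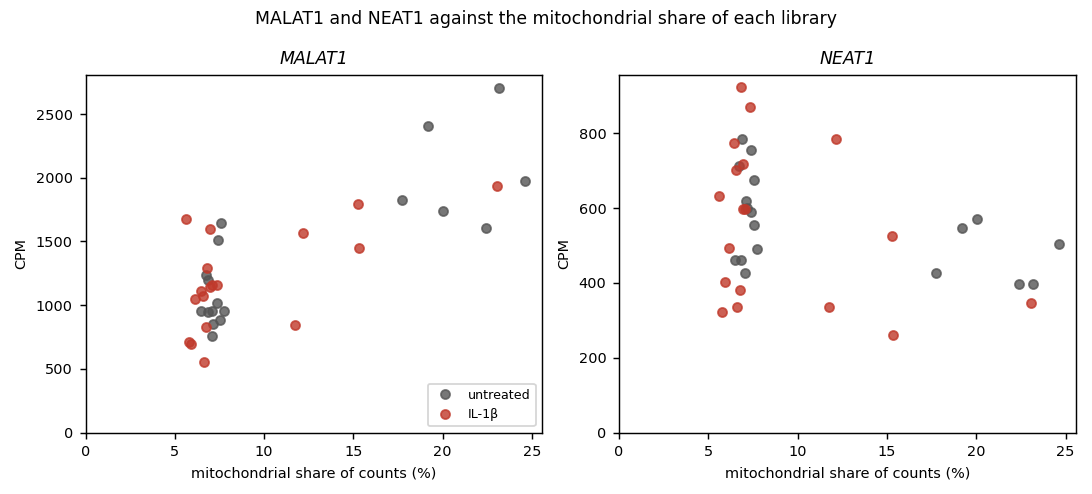
CPM of MALAT1 and NEAT1 (vertical axes) against the percent of each library's counts on mitochondrial genes (horizontal axes), with 1 point per library for the 36 libraries of untreated and IL-1β cells. In the 6 untreated libraries of high share MALAT1 is at 1608 to 2703 CPM and NEAT1 at 397 to 571 CPM.

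Read across the genes, 1 of the 5 tested members, MIR3142HG, passed both an adjusted p of 0.05 and a 2-fold change at each exposure time. The share of all 19180 tested genes that did so was 2.77%, 4.24% and 4.26% at days 6, 15 and 21. After withdrawal no member passed both (edgeR's quasi-likelihood test, with 1, 0 and 0 members at an unadjusted p under 0.05 and none by DESeq2), where 1.80%, 0.954% and 0.897% of all genes did. MIR22HG was past the adjusted p but under 2-fold at days 15 and 21 and at 6 days after withdrawal. At the last of these it was 1.53-fold higher and was past the adjusted p in 7 of 14 settings. The groups did not overlap for 3 of the 5 members at day 6, 4 at day 15 and 3 at day 21, and for 2 at 6 days, 0 at 15 days and 0 at 30 days after withdrawal. For all genes these shares were 21.8%, 25.4%, 29.0%, 10.8%, 10.9% and 11.9%. Because the response chose the members, nothing is read from these counts. For the same reason the passing of the adjusted p by MIR22HG is a description and no test of it. The 6 comparisons have separate untreated libraries.

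The comparison among untreated collections was not the one behind the choice. Its libraries are, however, the untreated side of the known IL-1β contrasts, so it is not independent of them. MIR22HG, LUCAT1, NEAT1 and MALAT1 did not pass for a difference among the 6 untreated collections (adjusted p = 0.9815 for each, edgeR quasi-likelihood, Benjamini-Hochberg, and 0 at an unadjusted p under 0.05), and 1 of the 19180 genes did, or 0.00521%. MIR3142HG passed the filter through its exposed libraries and was at the floor in every untreated one, so the test says nothing about it. From day 6 to the last collection, untreated LUCAT1 was higher by 0.77 on the log2 scale (standard error 0.29), from 10.7 ± 1.25 to 18.5 ± 8.49 CPM, and did not pass (adjusted p = 1.0, same test). LUCAT1 was the only member at an unadjusted p under 0.05 there. The same difference was 0.34 for MALAT1, 0.11 for NEAT1 and 0.10 for MIR22HG, and 0 of these 4 members passed against 0.0104% of all genes.

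Per kilobase of exon, the order of the median levels was MALAT1 at 111 CPM per kilobase, NEAT1 at 24.2, MIR22HG at 7.73, LUCAT1 at 1.15 and MIR3142HG at 0.0215. At its highest, MIR3142HG reached 7.61 CPM per kilobase, near the median of MIR22HG. The ranges of MALAT1 (53.1 to 259) and NEAT1 (11.5 to 40.6) did not overlap, and that of LUCAT1 (0.516 to 2.12) lay below that of MIR22HG (5.05 to 13.1). The overlap between NEAT1 and MIR22HG was slight. Exon bases were merged over all transcripts of GENCODE v44, which gave 22767 for NEAT1 and 16558 for LUCAT1. That release need not be the one counted. The order and the ranges rest on these lengths, and which transcripts the libraries captured was not tested.

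The replicate spread of the members differed as well. The standard deviation of log2 CPM within groups was 0.53 for MALAT1, 0.37 for NEAT1, 0.36 for LUCAT1 and 0.20 for MIR22HG. For MIR3142HG it was 0.45, pooled mostly over groups near the floor, so that value does not describe its spread under IL-1β. The median was 0.25 over 1975 genes averaging above 100 CPM, of which 8.51% varied more than MALAT1 and 22.8% more than NEAT1. MIR22HG, at 25.4 CPM on average, had the smallest spread of the tested members other than MIR3142HG.

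The genes whose log2 CPM followed each member most closely over the 36 libraries were found by Pearson r, a description of libraries that share treatments and collections. For MIR3142HG they were the neutrophil chemokines CXCL2 (r = 0.969), CXCL8 (0.960) and CXCL3 (0.959), points that fall into the 9 libraries under IL-1β and the others near the floor. For MIR22HG they were the transcription factor RUNX1 (0.877), the kinase PLK2 (0.872) and the stress gene GADD45A (0.861). For LUCAT1 they were TRIML2 (0.809), ENOX2 (0.804) and RASGRF2 (0.793).

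NEAT1 followed CDK5RAP3 (r = 0.937) and ATG16L2 (0.917), and MALAT1 followed TPP1 (0.854), NPIPA1 (0.851) and GNAS (0.842). None of these 5 genes passed at day 21 of IL-1β (log2 fold changes from -0.13 to 0.09, adjusted p = 0.9995 for each, edgeR quasi-likelihood, Benjamini-Hochberg). MIR22HG and LUCAT1 went together at r = 0.52 in the 25 libraries of low mitochondrial share and 0.58 in the 11 of high share.

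Over all members, 11 protein-coding genes, the nearest tested ones on either side, were examined. At each of the 6 times 0 of 11 passed both thresholds by edgeR's quasi-likelihood test, with 1, 1, 0, 2, 0 and 1 at an unadjusted p under 0.05, and 0 passed by DESeq2. WDR81, which overlaps the body of MIR22HG on the other strand without shared exon bases, had a log2 fold change of -0.03 at day 21 (standard error 0.62). ARRDC3 beside LUCAT1 had 0.44, 0.39 and 0.23 during exposure, each with a standard error of 0.20. MRPL39, 10488 bases from MIR155HG, had 0.05 at day 21, and C21orf91, the nearest tested protein-coding gene on its other side but 7742419 bases away, had 0.24. At the same time TLCD2 and SERPINF2 beside MIR22HG, both under 0.5 CPM, had -0.06 and -1.03, FRMD8 beside NEAT1 had -0.09 and LYSMD3, 525250 bases from LUCAT1, had 0.17.

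Of 30 other tested genes named as microRNA hosts, of 76 matched by symbol, 0 passed both thresholds at day 6 (6 at an unadjusted p under 0.05, 1 by DESeq2), 2 at day 15 and 1 at day 21. The share of all tested genes was 2.77%, 4.24% and 4.26% at these times, and nothing is read about hosts as a class from these counts. MIR100HG, the host of miR-100, let-7a-2 and miR-125b-1, rose by 2.89 on the log2 scale at day 15 (standard error 0.45, adjusted p = 6.01e-05) and by 2.65 at day 21 (standard error 0.45, adjusted p = 0.000171), both by edgeR quasi-likelihood, Benjamini-Hochberg. At day 21 it went from 1.59 ± 0.448 to 9.97 ± 2.76 CPM. MIR1915HG fell by 1.18 at day 15 (standard error 0.23, adjusted p = 0.00119, same test), but without replicate 1 its adjusted p was 0.0963. After withdrawal 0 of 30 passed, with 5, 2 and 2 at an unadjusted p under 0.05 and 1, 1 and 0 by DESeq2. MIR100HG then had log2 differences of 1.49, 1.51 and 1.22 that did not pass (adjusted p = 0.0727, 0.0944 and 0.284, same test).

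Of 15 tested genes listed for microRNA processing, 1 passed at each exposure time, where 2.77%, 4.24% and 4.26% of all genes did. ZC3H12A, the RNase Regnase-1 that cleaves inflammatory messages and some microRNA precursors, rose by 3.76, 2.93 and 3.41 on the log2 scale at days 6, 15 and 21, and at day 21 from 10.7 ± 1.65 to 113 ± 33.0 CPM (adjusted p = 7.74e-06, edgeR quasi-likelihood, Benjamini-Hochberg). At day 15 its adjusted p was 0.055 without replicate 1. DROSHA and DICER1 had log2 fold changes of 0.05 and 0.15 at day 21 and did not pass. The median over the list was -0.08, 0.03 and 0.05 during exposure, beside -0.02, -0.02 and -0.01 over all genes. After withdrawal 0 of the 15 passed by edgeR or DESeq2, and 0 at an unadjusted p under 0.05.

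Of 10 tested genes reported as targets of miR-146a, 2 rose at day 6 and 1 at days 15 and 21, and 0 fell. The share of all genes that passed in either direction was 2.77%, 4.24% and 4.26%. IRAK2, a kinase of IL-1 receptor signalling, rose by 2.98, 2.19 and 2.03 on the log2 scale, and at day 21 from 22.3 ± 1.16 to 91.1 ± 15.7 CPM (adjusted p = 1.12e-06, edgeR quasi-likelihood, Benjamini-Hochberg). RELB, an NF-κB subunit also counted in the NF-κB response list, rose by 2.08 at day 6 (standard error 0.50, adjusted p = 0.0111, same test). Its adjusted p by that test was 0.216 without replicate 1 and 0.124 without replicate 3. IRAK1 and TRAF6, the best known targets, had log2 fold changes of 0.03 and -0.10 at day 21 and did not pass. The median over the list was 0.02, 0.04 and 0.02 during exposure. After withdrawal 0 of 10 passed, with 1, 1 and 4 at an unadjusted p under 0.05 and 0 by DESeq2.

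Among 12 tested genes reported as targets of miR-155, only ETS1, a transcription factor, passed. At days 6, 15 and 21 it rose by log2 values of 1.56, 1.29 and 1.31, and at day 21 from 42.3 ± 3.97 to 105 ± 16.4 CPM (adjusted p = 5.10e-07, edgeR quasi-likelihood test, Benjamini-Hochberg adjusted). The list's median was 0.09, 0.15 and 0.21, and 2.77%, 4.24% and 4.26% of all genes passed at these times. Among 9 tested for miR-22, ERBB3, a receptor of the EGF receptor family, fell by 2.09, 2.27 and 1.20 on the log2 scale, and at day 21 from 3.48 ± 0.430 to 1.51 ± 0.147 CPM (adjusted p = 0.0428, same test). ERBB3 at day 21 did not pass without replicate 1 or 2 (adjusted p = 0.332 and 0.368) and at day 6 without replicate 1 (0.065). The other 8 did not pass, and the median was -0.27, 0.14 and -0.02. After withdrawal 0 genes of either list passed, with 3, 2 and 3 of the miR-155 list and 2, 2 and 1 of the miR-22 list at an unadjusted p under 0.05. DESeq2 called 1 gene of the miR-22 list at 30 days after withdrawal.

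Protein partners of the nuclear RNAs did not pass at any of the 6 times. For 14 tested paraspeckle proteins the count was 0 at every time by edgeR's quasi-likelihood test and by DESeq2, with 1, 0, 0, 0, 1 and 0 at an unadjusted p under 0.05. NONO and SFPQ, which coat NEAT1, had log2 fold changes of -0.10 and 0.13 at day 21 (standard errors 0.16 and 0.29). For 12 nuclear speckle proteins the count was 0 at every time by both tools and 0 at an unadjusted p under 0.05. The medians of both lists lay between -0.17 and 0.08 over the 6 times.

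The NF-κB response list, which describes the setting of MIR3142HG, had 17 of 19 tested genes higher at day 6, 15 at day 15 and 15 at day 21, with medians of 2.65, 2.27 and 2.45 on the log2 scale. Of all genes 2.77%, 4.24% and 4.26% passed in either direction. After withdrawal 5, 3 and 4 genes were past both thresholds, with medians of 0.88, 0.61 and 0.82, beside 1.80%, 0.954% and 0.897% of all genes. At day 21 the chemokine CXCL8 rose by 6.91, CCL20 by 5.57, the cytokine IL6 by 5.55 and CXCL1 by 5.43 on the log2 scale. CXCL8, near MIR3142HG in the ranking above, had 1.36, 0.02 and -0.97 after withdrawal and passed at none of those times, whereas IL6 passed at all 3.

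The NRF2 response list, which describes the setting of LUCAT1, moved downward where it moved. Of its 14 tested genes 0 rose, and 2, 3 and 3 fell at days 6, 15 and 21, all of them aldo-keto reductases. Among all genes 2.77%, 4.24% and 4.26% passed in either direction at those times. At day 21 AKR1C2 fell by 2.00, AKR1B10 by 1.88 and AKR1C1 by 1.17 on the log2 scale, and AKR1B10 went from 1506 ± 40.9 to 409 ± 27.8 CPM (adjusted p = 1.44e-08, edgeR quasi-likelihood, Benjamini-Hochberg). AKR1C1 at day 21 did not pass both thresholds without replicate 1 or 2, nor AKR1C2 at day 6 without replicate 1 or 3. The list's median was -0.30, -0.41 and -0.29, while LUCAT1 itself was at 0.95, 0.86 and 0.47. After withdrawal 1, 0 and 0 of the 14 passed, with 6, 5 and 1 at an unadjusted p under 0.05 and 1, 0 and 0 by DESeq2. The share of all genes was then 1.80%, 0.954% and 0.897%.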

How the data were processed

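Per the labels, total RNA was made into KAPA Stranded mRNA-Seq libraries. The submitters' processing notes name bcl2fastq 2.17, TopHat2 2.0.14, Bowtie2 2.2.5, HTSeq 0.6.1 and GRCh37. The authors deposited raw counts per Ensembl gene for each library, and the strand setting and annotation release are not given in the sources used here. Reads on no gene were 8.48% to 18.6% and ambiguous reads 2.62% to 4.18% of each file, and these lines stayed out of library sizes. Symbols came from GENCODE v44 lifted to GRCh37, for 55665 of 63677 identifiers. Gene bounds and exon bases came from it too and may differ from those counted.

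Genes were filtered (filterByExpr), scaled (TMM) and fitted over 12 groups in 36 libraries with edgeR 4.0.16 (R 4.3.3) by quasi-likelihood, with Benjamini-Hochberg adjustment over 19180 genes. A gene passed when its fold exceeded 2 and its adjusted p was below 0.05. CPM are counts scaled to a common total after TMM, and a floor of 3 counts per library bounds folds. Standard errors are the log2 fold change over the root of F. The floor covers counting error only, since reads carry no molecular identifiers. The code was tested on simulated data. The members, gene lists and tests were chosen with earlier results of these data known. The genes named were the members, their nearest tested protein-coding genes, hairpins inside them, other MIR*HG genes that passed, the 3 closest genes by r, and up to 4 genes per list that passed at day 21, by size of change. DROSHA, DICER1, IRAK1, TRAF6, RELB, NONO and SFPQ were added after their values were seen. Some genes that this rule names are not reported here. Alternatives were other scalings, filters, DESeq2 1.42.0, a replicate block, terms for mitochondrial share and libraries left out. The labels call replicates biological, without saying what was separate, so p-values measure the spread between these samples.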

Additional observations from a re-analysis of the deposited data

Results flagged for a closer look

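NEAT1 was marked for a closer look because its difference between IL-1β and untreated cells was below 0 at day 15 of exposure and above 0 at the last 2 collections. At day 15 of IL-1β the log2 fold change was -0.50, and each exposed library was below the untreated library of the same number. At 6 days after withdrawal it was -0.05. At 15 and 30 days it was 0.32 and 0.41, and each exposed library was above the untreated one of the same number, although the groups overlapped and the numbers were not taken to pair samples. The difference between these times was not tested. The value at day 15 of exposure was -0.17 without replicate 3, and that at 15 days after withdrawal was 0.09 without replicate 3 and 0.07 once libraries with a high mitochondrial share were left out.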

How the results depend on the processing

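The count of members past both thresholds, 1 at each exposure time, became 2 at day 6 with total counts, with the mitochondrial share term, and with that term plus the replicate block, LUCAT1 being the addition. Requiring at least 10 counts in every library gave 0 at days 6, 15 and 21, since that filter removes MIR3142HG. Leaving out 1 replicate number gave 1 to 2 members at day 15, and the 2 came without replicate 2. Among other microRNA hosts, MIR100HG alone raised the count at day 6 from 0 to 1 with total counts, the replicate block, the mitochondrial term, that term plus block, without libraries of high share, with each time fitted alone and with DESeq2's Wald test. The count likewise became 1 at 6 days after withdrawal under these settings except the separate fits, at 15 days also not without the libraries of high share, and at 30 days with the mitochondrial term, the term plus block and without those libraries. The count of 2 at day 15 was 1 without replicate 1, 3 without replicate 2 and 2 without replicate 3. NEAT1 in untreated cells, 0.11 from day 6 to the last collection, ran from -0.06 without replicate 3 to 0.33 without replicate 2. Total counts moved the median of all genes to 0.21 at 15 days after withdrawal (0.02 in the main scaling). Same-numbered libraries correlated above 0.1 in 14 of 18 pairs (mean r = 0.28, range -0.34 to 0.72). The labels do not say what the numbers share, and the main fit did not take them to pair samples. With the replicate block 590, 912 and 889 genes passed at days 6, 15 and 21, against 531, 814 and 817 in the main fit. The block gave MIR22HG 0.90 at day 21. Of the named calls, AKR1C1 was lost at day 15 without replicate 1 (adjusted p = 0.134, edgeR quasi-likelihood) and ERBB3 at day 15 with each time fitted alone (0.08), and ERBB3 at day 21 missed under 6 settings (0.0524 to 0.368). MIR155HG, and MIR3142HG outside exposure, are limited by depth.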
